A study of Arabidopsis thaliana with 4 samples.

Results

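Messenger RNA of developing Arabidopsis thaliana fruits was compared between the late stages (stages 3 and 4, 11 to 20 days after the flower opened) and the early stages (stages 1 and 2, 0 to 10 days). A locus was counted as separating them when its lower value on one side stood at least 1 above its higher value on the other side, on the scale log2(FPKM + 1). FPKM is the number of sequenced fragments scaled to transcript length and library size, and a margin of 1 on this scale is a gap of about 2-fold, larger for low values because of the added 1. Only loci above 0 in all 4 libraries were tested, 19903 of 29971. Of these, 2212 (11.1%) separated the stages. The late stages were higher at 1218 loci (6.12% of those tested) and the early stages at 994 (4.99%). Since these FPKM values chose the loci, the values below describe the loci and are not evidence for them.

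All material was the wild-type accession Col-0, and the fruits (siliques, the pods with their seeds) were taken whole from plants kept at 22 °C with 16 h of light. By the labels, fruits of stage 4 were 16 to 20 days old counted from anthesis, those of stage 3 were 11 to 15 days old, those of stage 2 were 6 to 10 and those of stage 1 were 0 to 5. Each stage was 1 library, and the 2 libraries on each side differ in age, so they are not replicates and no p-value is given. RNA of pod wall, seed coat, endosperm and embryo was pooled in each library, so fewer cells of a type and less RNA per cell cannot be told apart.

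A silique grows first by cell division and elongation of the pod wall while the young seeds divide and lay down their coats. In the second phase the embryo fills with storage proteins and with oil held in oil bodies, then acquires desiccation tolerance and dormancy. The hormone abscisic acid and a set of transcription factors that includes ABI3 and FUS3 are known to direct that maturation programme in Arabidopsis seeds.

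The libraries held about 58.7 to 100.3 M fragments, read from the spacing of the lowest FPKM values and valid as relative depth only. The short locus AT2G01021 alone accounted for 45.0% and 6.65% of all FPKM in stages 3 and 4, against 78.3% and 63.1% in stages 1 and 2. The split of the separated loci, 55.1% higher in the late stages, moved with the scaling, and the part of that locus in this was not tested. It was 86.4% when all libraries were given the same FPKM total (total scaling), 39.5% when that total left out loci under 300 bases (long-locus scaling), and 55.7% at a common median ratio. These scalings shifted the median difference of all loci, late minus early, from -0.01 as deposited to 0.93, -0.11 and -0.01 on the log2 scale. Of all 19903 tested loci, total scaling made 2424 late-higher and 381 early-higher, and long-locus scaling 941 and 1444. Scaled counts of single lists and classes below are to be read beside these. No separated locus could change sides under these scalings, because the factors of stages 2 and 3 lay less far apart than the margin. These factors were 1.19 and 1.33 in total scaling and 1.25 and 0.937 in long-locus scaling. Stage 2 decided the counts most: without it, 2786 loci were higher in the late stages and 3173 in the early stages. Without stage 3 there were 1912 late-higher and 1756 early-higher loci, and without stage 1 there were 1707 and 1549.

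**Figure D1:**
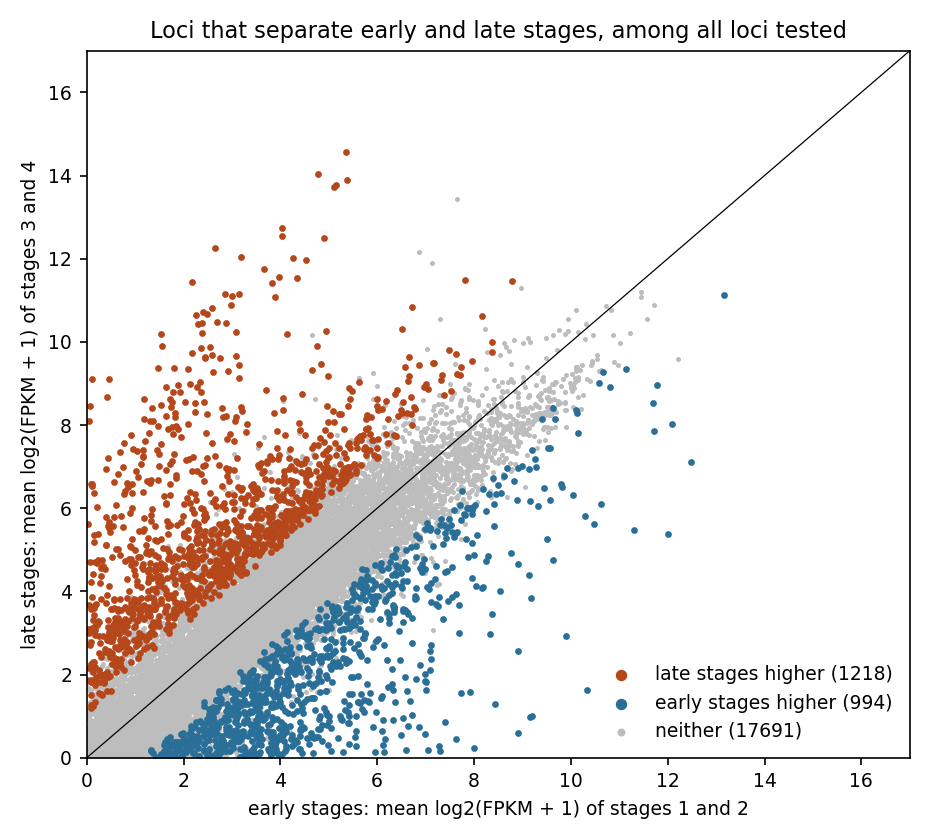
Each point is 1 of the 19903 loci above 0 in all 4 libraries, with the mean log2(FPKM + 1) of stages 3 and 4 on the vertical axis and that of stages 1 and 2 on the horizontal axis. The 1218 loci higher in the late stages (red) have margins up to 6.95 and the 994 higher in the early stages (blue) up to 6.55, and 17691 loci (grey) did not separate.

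The late-higher genes were more abundant on their high side. Their median margin as deposited was 1.64, against 1.50 for the early-higher genes. The largest margins were 6.95 for AT1G14940 and 6.55 for THI2.1, an order that turned under long-locus scaling, where AT1G14940 had 6.82 and THI2.1 differed by -6.95 (negative meaning higher in the early stages). A margin of at least 3 was reached by 220 late-higher and 101 early-higher loci. In the late-higher group 299 loci stood at 100 FPKM or more in both stages 3 and 4, and 36 at 1000 or more. In the early-higher group 126 loci stood at 100 FPKM or more in both stages 1 and 2, and 14 at 1000 or more. Conversely, the early-higher genes were more often nearly silent on their low side: 28.4% of them lay under 1 FPKM in both stages 3 and 4, whereas 14.0% of the late-higher genes lay under 1 FPKM in both stages 1 and 2. Over loci of 300 bases or more, the late-higher genes made up 29.8% and 37.6% of the FPKM sum in stages 3 and 4, against 1.69% and 3.59% in stages 1 and 2. The early-higher genes made up 2.18% and 1.75% in stages 3 and 4, against 17.7% and 14.5% in stages 1 and 2. By the RefSeq annotation, 1150 late-higher and 961 early-higher loci were single protein-coding genes, while 45 and 19 were loci that hold several genes and carry 1 joint value.

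The widest margin of the late-higher group belonged to AT1G14940 (chromosome 1, 5154537 to 5155564, minus strand), annotated as a polyketide cyclase and lipid transport protein, at 6.95. It stood at 133 and 2274 FPKM in stages 3 and 4, against 0.0646 and 0.0860 FPKM in stages 1 and 2. Its neighbours AT1G14930 and AT1G14950, of the same family, had margins of 6.60 and 6.55. AT1G14950 stood at 1754 and 4438 FPKM in stages 3 and 4, against 0.0888 and 17.7 FPKM in stages 1 and 2, so its early values were far apart and still well below the late ones. These 3 genes are near copies in one cluster, and how the authors' counting split shared reads is not known.

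The 12 widest margins in each direction were taken among single protein-coding genes at 10 FPKM or more in both libraries of the higher side. Among the 12 late-higher ones, SESA1 was the one storage protein gene. The joint locus of SESA5, not eligible there, had a wider margin of 6.30. SESA1 (AT4G27140; chromosome 4, 13607329 to 13608031, plus strand), a 2S albumin that stores nitrogen and sulphur for the seedling, stood at 16562 and 16931 FPKM in stages 3 and 4, against 2.27 and 228 FPKM in stages 1 and 2. GASA3 (AT4G09600), a small cysteine-rich protein of the gibberellin-regulated GAST1 family, stood at 142 and 1165 FPKM in the late stages, against 0.334 and 0.330 FPKM in the early ones. NSP2 (AT2G33070), a nitrile specifier protein that steers glucosinolate breakdown towards nitriles, stood at 77.1 and 957 FPKM, against 0.0554 and 0.0166 FPKM. Both GASA3 and NSP2 were under 1 FPKM in both early libraries and differed widely between the late ones. FACT (AT5G63560), which links caffeic acid to long-chain alcohols in suberin-associated wax, behaved otherwise among the 12 widest gaps: it was higher in stage 3 than in stage 4, at 209 and 104 FPKM, against 0.410 and 0.301 FPKM in stages 1 and 2. AT1G54870, annotated as an NAD(P)-binding Rossmann-fold protein, had a margin of 6.82, the glycine-rich protein gene AT2G05580 one of 6.40 and AT3G56350, of the iron/manganese superoxide dismutase family, one of 6.25.

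**Figure D2:**
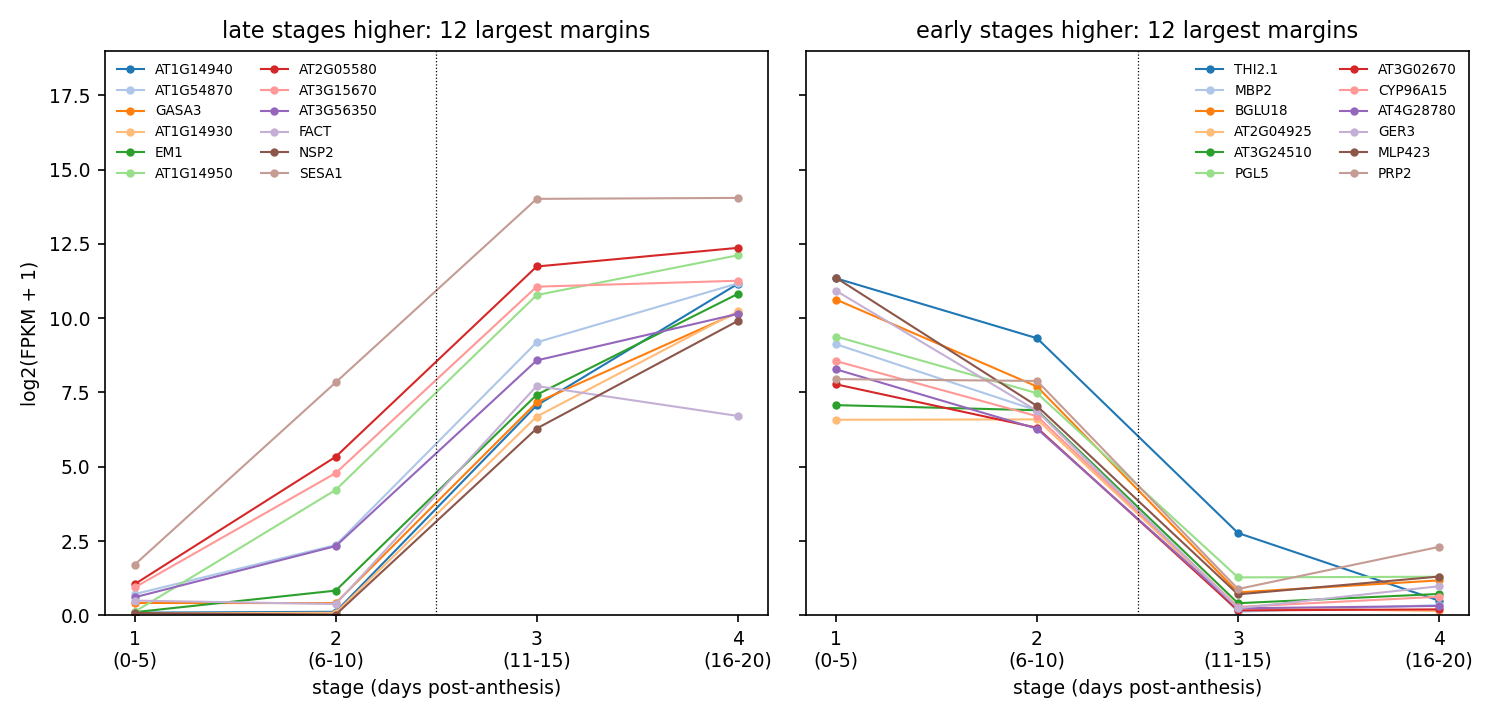
Lines give log2(FPKM + 1) in stages 1 to 4 (days post-anthesis in brackets), 1 library a stage, with a dotted line between stages 2 and 3. Shown are the 12 widest margins in each direction among single protein-coding genes at 10 FPKM or more in both libraries of the higher side. In the left panel all 12 late-higher genes climb across the dotted line, SESA1 to 16562 FPKM, and in the right panel all 12 early-higher genes drop, THI2.1 to 5.82 FPKM.

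Every listed storage protein gene that could be tested separated the stages. All 8 were late-higher, with a median margin of 5.54, whereas the median over all tested loci was 0. The same held for all 8 listed oil body genes, with a median of 5.29. Of all tested loci 6.12% were late-higher. These lists hold well-known members. By product name, 11 of 16 tested oleosin or caleosin genes were late-higher and none early-higher. Of 25 tested cupin or seed storage albumin genes, 7 (28%) were late-higher and 2 (8%) early-higher. Of all tested protein-coding genes, 6.22% were late-higher and 5.20% early-higher. SESA2, another 2S albumin, was the most abundant late-higher gene, at 21789 and 27189 FPKM in stages 3 and 4, against 2.55 and 473 FPKM in stages 1 and 2. PAP85, a vicilin-like globulin, stood at 1953 and 2478 FPKM in the late stages, against 0.560 and 40.3 FPKM in the early ones. SESA5 had a margin of 6.30, but its value is shared with AT5G54780 in a joint locus. OLEO1, the main oleosin that coats oil bodies, stood at 11565 and 15738 FPKM, against 3.63 and 256 FPKM. Stage 2 was above stage 1 in each of these genes, yet no late value came near an early one. The oleosins OLEO2 and OLEO4 and the caleosins ATS1 and ATPXG2, both annotated as peroxygenases, had margins of 5.21 to 5.55. Both groups of 8 stayed whole under each scaling tried.

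Another 5 storage genes could not be tested because they were listed at exactly 0. The 12S globulin genes CRA1, CRU2 and CRU3 and the albumin gene SESA3 were listed at 0 in both stages 3 and 4, against 10.8 and 975 FPKM for CRA1 and 19.4 and 1070.1 FPKM for SESA3 in stages 1 and 2. SESA4 stood at 10984 FPKM in stage 3 and was listed at 0 in stage 4, against 1.17 and 185 FPKM in stages 1 and 2. Such a 0 may stand for a value that could not be estimated, and these genes are given no direction.

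Of 25 tested genes for late embryogenesis abundant (LEA) proteins and other desiccation proteins, 23 were higher in the late stages and none in the early stages, with a median margin of 5.03. These were well-known members: over all 65 tested genes with late embryogenesis abundant in the product name, 20 (30.8%) were late-higher and 4 (6.15%) early-higher. Of all tested protein-coding genes, 6.22% were late-higher and 5.20% early-higher. RAB18, a dehydrin induced by abscisic acid, stood at 2731 and 3199 FPKM in stages 3 and 4, against 6.42 and 54.0 FPKM in stages 1 and 2. EM1, a group 1 LEA protein of dry seeds, stood at 170.4 and 1799 FPKM, against 0.0769 and 0.780 FPKM. RAB18 was near its final level already in stage 3, whereas others came later. GEA6, the close relative of EM1, stood at 7.54 and 1073 FPKM in stages 3 and 4, against 0.0798 and 0.0629 FPKM in stages 1 and 2. M17 stood at 4.05 and 236 FPKM, against 0.107 and 0.588 FPKM. The 2 genes that did not separate, LEA14 and AT2G23120, were abundant from stage 2 on: LEA14 stood at 280.1 and 262 FPKM in stages 3 and 4, against 32.6 and 194 FPKM in stages 1 and 2.

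Among 14 tested regulators of seed maturation, 7 (50%) were higher in the late stages, beside 6.12% of all tested loci. The other 7 did not separate, and the median margin was 0.99. ABI3, a B3-domain factor needed for desiccation tolerance, stood at 74.1 and 81.1 FPKM in stages 3 and 4, against 0.0255 and 7.82 FPKM in stages 1 and 2. DOG1, a dormancy gene, stood at 79.3 and 117 FPKM, against 0.0544 and 1.97 FPKM. AGL67, a MADS-box factor, stood at 110.0 and 264 FPKM, against 0.140 and 2.32 FPKM, and had the largest margin among all late-higher transcription factors, 5.07. FUS3, ABI5 and the bZIP factors EEL and DPBF2 completed the 7, with margins of 1.35 to 3.50. Of the 7 that did not separate, LEC1, LEC2, WRI1, MYB115 and MYB118 had a stage 2 value above that of stage 4, while BZIP25 and BZO2H1 were higher in both late stages but missed the margin, with 0.41 and 0.63. LEC1 stood at 31.6 and 8.00 FPKM in stages 3 and 4, against 0.489 and 78.6 FPKM in stages 1 and 2, and WRI1, an activator of oil synthesis, at 38.8 and 33.8 FPKM, against 3.61 and 42.1 FPKM. Both ranges overlap.

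Other transcription factors with wide late margins were AT4G18650 (4.34), the GATA-like AT1G02700 (3.89), AT3G14880 (3.37) and NAC038 (3.11). NAC038 was higher in stage 3 than in stage 4, at 52.5 and 26.2 FPKM, against 0.148 and 2.15 FPKM in stages 1 and 2. In all, 83 of 966 tested transcription factor genes were late-higher and 46 early-higher, shares of 8.59% and 4.76% beside 6.22% and 5.20% of all tested protein-coding genes. These product classes were drawn up after the values were seen, and under total scaling the counts of transcription factors were 151 and 12, under long-locus scaling 60 and 61. All 19903 tested loci held 2424 and 381 under total scaling, and 941 and 1444 under long-locus scaling.

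Oil synthesis separated less than oil storage. Of 22 tested genes listed under fatty acid and oil synthesis, 5 (22.7%) were late-higher and none early-higher, beside 6.12% and 4.99% of all tested loci. The list also holds the sucrose synthase genes SUS2 and SUS3, and SUS3 was among the 5, with a margin of 2.36. KCS18 (FAE1), which makes the very long chains of seed oil, stood at 135 and 143 FPKM in stages 3 and 4, against 0.0398 and 10.2 FPKM in stages 1 and 2. FAD3, the desaturase that makes linolenic acid, stood at 389 and 597 FPKM, against 148 and 104 FPKM. TAG1 (DGAT1), which catalyses the last step of oil assembly, stood at 56.5 and 52.4 FPKM, against 13.4 and 18.3 FPKM. FAD3 and TAG1 were thus well expressed on both sides, with gaps of 1.39 and 1.47, whereas KCS18 was nearly absent in stage 1.

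In the list of abscisic acid genes, 5 of 20 (25%) were late-higher and none early-higher, beside 6.12% and 4.99% of all tested loci. AHG1, a phosphatase that restrains abscisic acid signalling in seeds, stood at 30.3 and 71.6 FPKM in stages 3 and 4, against 0.192 and 0.759 FPKM in stages 1 and 2. CYP707A2, which breaks the hormone down, and the synthesis genes NCED6 and ABA1 had margins of 2.78, 1.14 and 1.22. The count was 12 under total scaling and 2 under long-locus scaling, where ABA1 (0.85) and NCED6 (0.83) fell short of 1. Over all 19903 tested loci the late-higher counts at these scalings were 2424 and 941. Of 10 tested genes for gibberellin enzymes, 8 did not separate and the median was -0.08. The 2 early-higher ones, beside 4.99% of all tested loci, encode enzymes that inactivate the hormone. GA2OX2 stood at 3.67 and 4.26 FPKM in stages 3 and 4, against 95.7 and 12.6 FPKM in stages 1 and 2. Under total scaling neither of them separated, and 2 other genes of the list were late-higher.

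Chlorophyll breakdown and seed coat suberin were late-higher in part. Of 17 genes of chlorophyll breakdown and senescence, 5 (29.4%) were late-higher and none early-higher, beside 6.12% and 4.99% of all tested loci. PPH, the pheophytinase that removes the phytol tail of chlorophyll, stood at 205 and 147 FPKM in stages 3 and 4, against 55.5 and 32.5 FPKM in stages 1 and 2. SAG29 (SWEET15), a sugar exporter, stood at 614 and 442 FPKM, against 31.9 and 73.6 FPKM. Of 14 suberin genes, 7 (50%) were late-higher and none early-higher, and all 7 were higher in stage 3 than in stage 4. CYP86B1, a fatty acid hydroxylase of suberin, stood at 159 and 24.8 FPKM in stages 3 and 4, against 2.05 and 7.77 FPKM in stages 1 and 2. The factor MYB107, a regulator of seed coat suberin, stood at 57.2 and 12.9 FPKM, against 1.12 and 3.97 FPKM. MYB9, its close relative, missed the margin with 0.59, at 57.8 and 5.55 FPKM, against 0.485 and 3.36 FPKM. Genes of this list whose stage 3 peak had passed by stage 4, such as GPAT5 and CYP86A1, overlapped with the early stages and did not count.

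ADPG1, a polygalacturonase of the pod's dehiscence zone, was the only late-higher member among 11 genes of fruit patterning and dehiscence. It stood at 85.8 and 246 FPKM in stages 3 and 4, against 0.913 and 8.67 FPKM in stages 1 and 2. Of 9 listed heat shock genes 2 were late-higher, with HSP17.4 at 31.2 and 789 FPKM, against 0.952 and 5.33 FPKM. Over all 106 tested heat shock genes 8 (7.55%) were late-higher and 6 (5.66%) early-higher, near the 6.22% and 5.20% of all tested protein-coding genes. Of 7 genes for raffinose-family sugars 2 were late-higher, GolS1 and SIP1 (AT1G55740), with margins of 1.69 and 1.19. SIP1 fell to 0.90 under long-locus scaling. Of 22 mucilage genes 2 were late-higher, MYB52 and NAC2, and of 19 secondary wall and lignin genes 2 were late-higher (FAH1 and OMT1) and 1 early-higher (XCP2), shares of 9.09%, 10.5% and 5.26%, beside 6.12% late-higher and 4.99% early-higher of all tested loci. Under long-locus scaling NAC2 (0.99) and OMT1 (0.79) did not reach the margin.

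**Figure D3:**
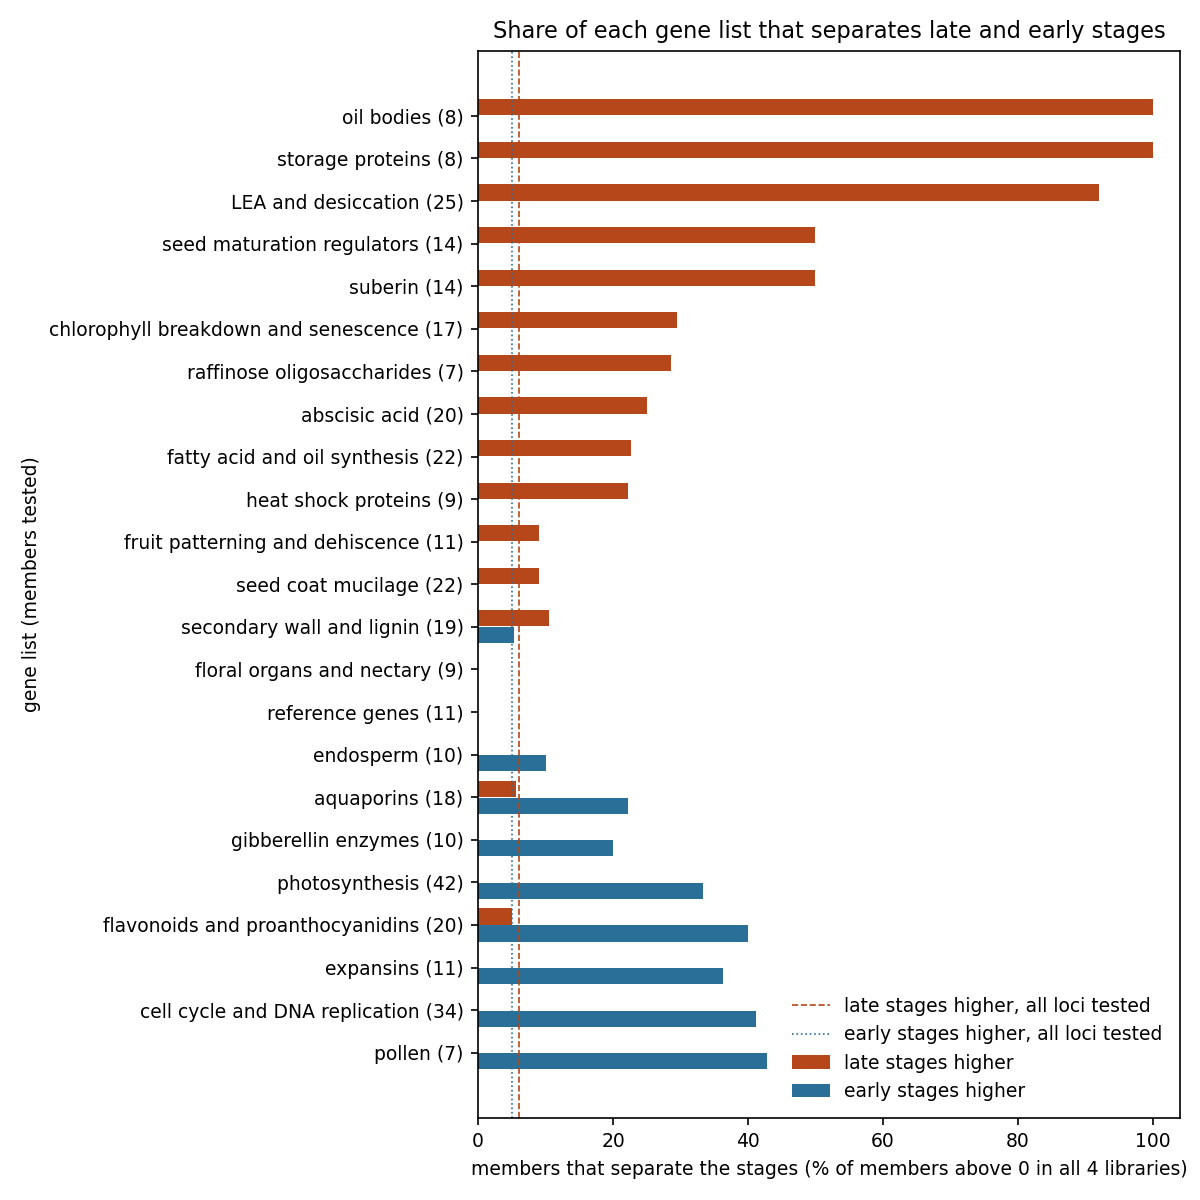
Bars give the share of each gene list that was higher in the late stages (red, upper) or in the early stages (blue, lower), as a percentage of the list's members above 0 in all 4 libraries, whose number stands in brackets. Dashed and dotted lines mark the shares over all tested loci, 6.12% and 4.99%; storage protein and oil body genes reach 100% late-higher, and pollen, cell cycle, flavonoid and expansin genes lead the early-higher lists.

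The widest margin of the early-higher group belonged to THI2.1 (AT1G72260; chromosome 1, 27198433 to 27199444, minus strand), a thionin toxic to microbes, at 6.55. It stood at 5.82 and 0.411 FPKM in stages 3 and 4, against 2593 and 640.2 FPKM in stages 1 and 2. MBP2 (AT1G52030), a lectin that binds the glucosinolate-cleaving enzyme myrosinase, stood at 0.0876 and 0.269 FPKM, against 556 and 118 FPKM. BGLU18 (AT1G52400), a beta-glucosidase of endoplasmic reticulum bodies, stood at 0.708 and 1.26 FPKM, against 1579.6 and 207 FPKM. All 3 were several times higher in stage 1 than in stage 2.

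Among the 12 widest early gaps, a smaller set held level through both early stages before dropping. Over all early-higher loci, 601 of 994 (60.5%) differed by less than 1 between stages 1 and 2. PRP2 (AT2G21140), a proline-rich cell wall protein, stood at 0.848 and 3.93 FPKM in stages 3 and 4, against 246 and 236 FPKM in stages 1 and 2. AT3G24510, a defensin-like peptide gene, stood at 0.327 and 0.647 FPKM, against 134 and 119 FPKM. AT2G04925, annotated as a putative membrane lipoprotein, stood at 0.184 and 0.106 FPKM, against 94.8 and 95.6 FPKM. The remaining genes among the 12 widest early gaps were PGL5, of the pentose phosphate pathway (6.18), the glycine-rich AT3G02670 (6.11), CYP96A15, which hydroxylates alkanes of the stem wax (6.08), the GDSL lipase AT4G28780 (5.96), the germin GER3 (5.90) and MLP423 (5.74). MLP423 stood at 0.632 and 1.47 FPKM in stages 3 and 4, against 2624 and 131 FPKM in stages 1 and 2.

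The 5 most abundant early-higher genes were RBCS1A, LTP6, GRP5, LTP3 and LCR73. RBCS1A, which encodes a Rubisco small subunit for carbon fixation, stood at 2609 and 1928 FPKM in stages 3 and 4, against 14172 and 5913 FPKM in stages 1 and 2. LTP6, a lipid transfer protein of the extracellular space, stood at 291 and 63.6 FPKM, against 4872 and 6802 FPKM. LCR73, a small cysteine-rich peptide gene, stood at 315 and 5.31 FPKM, against 2506 and 2532 FPKM. GRP5, a glycine-rich wall protein, and LTP3 had margins of 3.54 and 2.40. RBCS1A remained abundant in the late stages with a margin of 1.18. Under total scaling RBCS1A and LTP3 did not reach 1, with differences of -0.63 and -0.94, negative values meaning higher in the early stages.

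Of 42 tested photosynthesis genes 14 (33.3%) were early-higher and none late-higher, with a median of -0.79. Of all tested loci 4.99% were early-higher and 6.12% late-higher. RBCS2B stood at 38.2 and 118 FPKM in stages 3 and 4, against 1922 and 1275 FPKM in stages 1 and 2. PSBQA, of photosystem II, stood at 298 and 167 FPKM, against 1332 and 968 FPKM. The 28 others did not reach the margin, as LHCB4.1 at 1137 and 588 FPKM, against 1548 and 1429 FPKM. The count was 2 under total scaling and 20 under long-locus scaling, beside 381 and 1444 early-higher among all 19903 tested loci. The RBCS genes are near copies of each other, so their separate values are uncertain.

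Genes of DNA replication made up most of the separated cell cycle genes. In the cell cycle and replication list 14 of 34 (41.2%) were early-higher and none late-higher, with a median of -0.70. Of all tested loci 4.99% were early-higher and 6.12% late-higher. PCNA1, the sliding clamp of DNA polymerase, stood at 6.35 and 1.59 FPKM in stages 3 and 4, against 33.3 and 30.6 FPKM in stages 1 and 2. PRL (MCM7), a subunit of the replicative helicase, stood at 3.67 and 0.858 FPKM, against 14.4 and 17.1 FPKM, and MCM2, MCM4 and MCM5 separated as well. TSO2 and RNR1, subunits of ribonucleotide reductase, and the DNA methyltransferases CMT3 and MET1 had margins of 1.20 to 1.78. The mitotic kinase genes CDKB1;1, CDKB1;2 and CDKB2;2 were early-higher too. In contrast, none of the 7 tested B-type cyclins separated. CYC1BAT (CYCB1;2) stood at 10.8 and 2.10 FPKM in stages 3 and 4, against 20.2 and 19.2 FPKM in stages 1 and 2, a gap of 0.77 on this scale between stage 3 and stage 2. Under total scaling only 1 gene of the list was early-higher, and under long-locus scaling 14 were. Over all 19903 tested loci the early-higher counts at these scalings were 381 and 1444.

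Histone genes, which are made during replication, held 1 late-higher and 16 early-higher members among 41 tested, an early-higher share of 39.0% beside 5.20% of all tested protein-coding genes. Near-identical histone copies may share reads. The H3-type gene AT1G09200 stood at 51.4 and 14.8 FPKM in stages 3 and 4, against 423 and 228 FPKM in stages 1 and 2. The exception, AT1G08170, annotated to the histone superfamily, stood at 13.0 and 45.3 FPKM, against 0.198 and 0.135 FPKM. Under total scaling the counts were 5 late-higher and 7 early-higher, beside 2424 and 381 of all 19903 tested loci. Under long-locus scaling they were 1 and 19, beside 941 and 1444.

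Genes that remodel the cell wall were frequent among the early-higher ones. Of 155 tested pectin-modifying genes, 7 (4.52%) were late-higher and 39 (25.2%) early-higher, beside 6.22% and 5.20% of all tested protein-coding genes. The counts were 10 and 23 under total scaling, and 7 and 49 under long-locus scaling. All 19903 tested loci held 2424 and 381 under total scaling, and 941 and 1444 under long-locus scaling. The pectate lyase gene AT1G67750 stood at 0.443 and 0.369 FPKM in stages 3 and 4, against 108 and 18.9 FPKM in stages 1 and 2. Of 11 listed expansins, which loosen the walls of growing cells, 4 (36.4%) were early-higher and none late-higher, with and without each scaling tried. Of all tested loci 4.99% were early-higher as deposited. EXPA8 stood at 0.405 and 0.747 FPKM in the late stages, against 105 and 44.0 FPKM in the early ones. Of 18 aquaporin genes, 4 (22.2%) genes for plasma membrane water channels were early-higher, among them PIP3 at 79.9 and 52.9 FPKM, against 1568 and 263 FPKM. Of these 4, only PIP3 remained early-higher under total scaling.

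Small auxin-up RNA (SAUR) genes, many of which promote cell expansion, had 5 late-higher and 23 early-higher members among 54 tested. These shares were 9.26% and 42.6%, beside 6.22% and 5.20% of all tested protein-coding genes. AT4G38860 stood at 10.8 and 8.00 FPKM in stages 3 and 4, against 155 and 70.9 FPKM in stages 1 and 2. SAUR20 stood at 0.545 and 0.606 FPKM, against 21.0 and 11.2 FPKM. The late-higher exceptions included AT3G12955, at 19.1 and 26.0 FPKM, against 0.545 and 2.90 FPKM. Under total scaling the class held 9 late-higher and 11 early-higher genes, and under long-locus scaling 4 and 24. All 19903 tested loci held 2424 and 381 under total scaling, and 941 and 1444 under long-locus scaling. Many SAUR genes lie in tandem clusters of similar sequence, so reads may have been shared among them.

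Genes of the plant surface and of defence peptides were also frequent on the early side. Of 65 lipid transfer proteins 7 (10.8%) were late-higher and 15 (23.1%) early-higher, and of 61 GDSL lipases 3 (4.92%) were late-higher and 12 (19.7%) early-higher. Of all tested protein-coding genes 6.22% were late-higher and 5.20% early-higher. Of 54 defensin-like and thionin genes 3 were late-higher and 14 (25.9%) early-higher. The thionin gene AT2G15010 was an opposite case, at 405 and 2254 FPKM in stages 3 and 4, against 0.212 and 6.19 FPKM in stages 1 and 2. Of 150 cytochrome P450 genes 26 (17.3%) were late-higher and 11 (7.33%) early-higher. The 5 with the widest late margins were CYP78A9, CYP71B37, CYP71A26, CYP707A2 and CYP83A1, and the 5 with the widest early margins all belonged to family CYP96A. Under total scaling the lipid transfer class held 13 late-higher and 9 early-higher genes, and the GDSL lipases 8 and 11. The defensin-like class held 4 and 9 and the P450 class 39 and 6, beside 2424 and 381 of all 19903 tested loci. Under long-locus scaling the lipid transfer class held 7 and 16, and the GDSL lipases 2 and 16. The defensin-like class then held 2 and 14 and the P450 class 22 and 13, beside 941 and 1444. CYP78A9, a regulator of fruit and seed size, stood at 272 and 230.3 FPKM in stages 3 and 4, against 1.72 and 3.79 FPKM in stages 1 and 2. CYP96A2 stood at 0.151 and 0.0622 FPKM, against 42.9 and 34.4 FPKM.

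Of 20 tested flavonoid and proanthocyanidin genes, which colour the seed coat, 1 (5%) was late-higher, 8 (40%) were early-higher and 11 did not separate. Of all tested loci 6.12% were late-higher and 4.99% early-higher. The median of the list was -0.75. TT12, the transporter that loads proanthocyanidin precursors into the vacuole, stood at 0.0927 and 0.0481 FPKM in stages 3 and 4, against 15.4 and 15.5 FPKM in stages 1 and 2. TT4, chalcone synthase, stood at 58.9 and 85.2 FPKM, against 470.2 and 697 FPKM. TT10, the laccase that oxidises and browns these compounds in the seed coat, was the late-higher one, at 388 and 279.6 FPKM in stages 3 and 4, against 1.18 and 126 FPKM in stages 1 and 2. Under total scaling 1 gene of the list was early-higher, beside 381 of all 19903 tested loci. Under long-locus scaling TT10 did not separate.

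Of 7 tested pollen loci, 3 (42.9%) were early-higher: AGP23, AGP11 and the joint locus of VGD1 (AT2G47040) and its neighbour AT2G47030. Of all tested loci 4.99% were early-higher. AGP11, an arabinogalactan protein of pollen, stood at 1.15 and 0.708 FPKM in stages 3 and 4, against 149 and 4.16 FPKM in stages 1 and 2. Among 10 tested endosperm genes 1 (10%) was early-higher. This was AT4G36590, a MADS-box factor, at 0.237 and 0.249 FPKM, against 2.80 and 13.3 FPKM, but it fell short of 1 under total scaling. None of 9 floral organ genes and none of 11 commonly used reference genes separated in either direction.

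The 6 early-higher transcription factors with the widest margins reached 3.55, against 5.07 among the late-higher ones. They were the bHLH factors AT4G00870 (3.55), PRE1 (3.36) and AT3G61950 (2.90), the MYB factor MYB16 (3.04), SPL8 (2.57) and the homeodomain-like AT2G38090 (2.34). PRE1, which promotes cell elongation in response to gibberellin and brassinosteroid, stood at 2.81 and 0.660 FPKM in stages 3 and 4, against 81.0 and 38.2 FPKM in stages 1 and 2. MYB16, a regulator of cuticle formation and epidermal cell shape, stood at 1.76 and 1.70 FPKM, against 27.8 and 21.7 FPKM. SPL8 stood at 0.847 and 0.250 FPKM, against 54.8 and 10.0 FPKM.

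Within several families, different members stood on opposite sides. These families were picked after the values were seen. Of the GAST1 family, GASA3 and GASA2 were late-higher, while GASA4 and GASA6 were early-higher. GASA2 stood at 26.0 and 319 FPKM in stages 3 and 4, against 0.135 and 0.0311 FPKM in stages 1 and 2, and GASA4 at 6.27 and 3.81 FPKM, against 1049 and 221 FPKM. Of the xyloglucan endotransglucosylases, which cut and rejoin wall polymers, XTH25 and XTH24 were late-higher and XTH9, XTH1 and XTH7 early-higher. XTH25 stood at 442 and 1388 FPKM in stages 3 and 4, against 4.06 and 7.93 FPKM, and XTH9 at 14.9 and 6.70 FPKM, against 1002 and 108 FPKM. Among aquaporins, TIP3;1, the water channel of the protein storage vacuole, was late-higher at 1059 and 1876 FPKM, against 0.490 and 17.3 FPKM. The 4 early-higher aquaporins were plasma membrane channels, while 13 of the 18 tested aquaporins did not separate. The sugar transporters SWEET11 and SWEET7 were late-higher and SWEET8 early-higher. Of the germins, GER2 (AT5G39190) was late-higher and GER3 early-higher, with GER3 at 0.180 and 0.971 FPKM in stages 3 and 4, against 1936 and 117 FPKM in stages 1 and 2. The MLP proteins, related to AT1G14940, were split too, with MLP31 late-higher at 32.1 and 279 FPKM, against 0.0785 and 0.0898 FPKM, and MLP423, MLP168 and MLP43 early-higher.

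Cyclin-dependent kinase inhibitors, which hold the cell cycle back, were also found on both sides. ICK1 (AT2G23430) was late-higher, at 25.1 and 28.4 FPKM in stages 3 and 4, against 7.46 and 9.29 FPKM in stages 1 and 2, and so were AT2G32710 and AT1G10690. AT2G28870, annotated as SMR1-like, was early-higher at 4.67 and 2.79 FPKM, against 31.9 and 31.4 FPKM. As deposited, ICK1 had a margin of 1.34 and AT2G28870 one of 2.52. With the factors of long-locus scaling, ICK1 falls just short of 1.

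MicroRNA precursors were among the few separated loci that make no protein. The precursor loci MIR156a and MIR156c were late-higher, and MIR164b was early-higher. miR156 is known to hold back the juvenile-to-adult transition through SPL factors and miR164 to limit NAC factors of organ boundaries. The mature 5′ products are shown to give the identity of these loci, read from the RefSeq TAIR10.1 genome, with the seed (bases 2 to 8) in capitals.
miR156a-5p, chr2:10676534-10676553, minus strand: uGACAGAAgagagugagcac
miR156c-5p, chr4:15415491-15415510, minus strand: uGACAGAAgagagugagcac
miR164b-5p, chr5:287586-287606, plus strand: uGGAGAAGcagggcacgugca
The first 2 share one seed and the whole mature sequence, and miR164b has another seed. MIR156a stood at 20.0 and 39.5 FPKM in stages 3 and 4, against 0.0436 and 1.48 FPKM in stages 1 and 2. MIR156c stood at 15.0 and 31.3 FPKM, against 0.430 and 1.71 FPKM, and MIR164b at 0.277 and 0.309 FPKM, against 4.24 and 2.25 FPKM. These values count fragments of longer precursor transcripts, and the mature microRNAs themselves were not measured. MIR414 was late-higher as well, with a margin of 1.53.

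As deposited, the 2 stages inside each side were not alike, and most differences ran in the direction of the separation itself. These steps depend on the scaling and were not recounted under the other scalings. Total scaling multiplies stages 1 to 4 by 0.502, 1.19, 1.33 and 2.37, which raises the later stage of each side against the earlier one. Long-locus scaling multiplies them by 0.901, 1.25, 0.937 and 0.980. Among late-higher loci 541 of 1218 (44.4%) climbed at every step from stage 1 to stage 4, of which the rule itself fixes the middle step. Stage 2 already stood at least 1 above stage 1 for 331 (27.2%), beside 10.4% of all tested loci. Stage 4 stood at least 1 above stage 3 for 167 (13.7%) and at least 1 below it for 59 (4.84%), beside 4.46% and 5.33% of all tested loci. The highest value was in stage 4 for 758 and in stage 3 for 460 loci. Among early-higher loci 427 of 994 (43.0%) declined at every step, with the middle step again fixed, and 763 (76.8%) had their highest value in stage 1. Stage 2 stood at least 1 below stage 1 for 333 (33.5%) and at least 1 above it for 60 (6.04%), beside 12.6% and 10.4% of all tested loci. Stage 4 stood at least 1 below stage 3 for 89 (8.95%) and at least 1 above it for 22 (2.21%), beside 5.33% and 4.46%. Since the rule fixes the step from stage 2 to stage 3, a locus has only the other 2 steps free, and both stayed within 1 for 703 late-higher (57.7%) and 535 early-higher loci (53.8%), beside 71.9% of all tested loci.

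**Figure D4:**
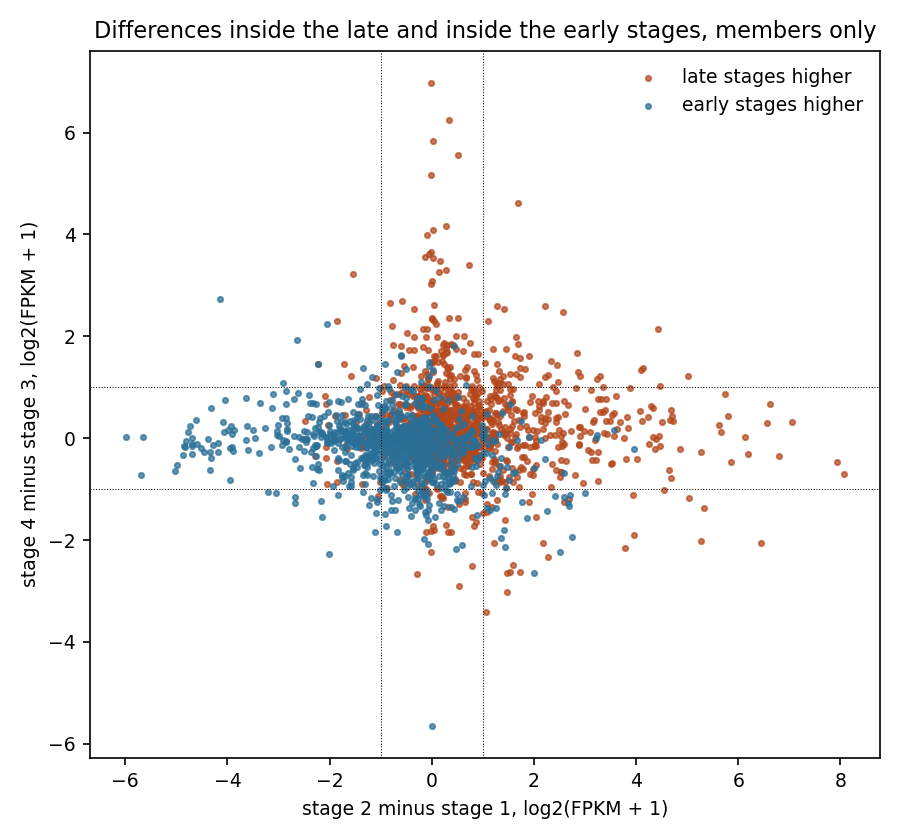
Each point is 1 separated locus, with the difference of stage 4 minus stage 3 on the vertical axis and of stage 2 minus stage 1 on the horizontal axis, both on the log2(FPKM + 1) scale, and dotted lines at 1 and -1. Late-higher loci (red) spread to the right and upward and early-higher loci (blue) to the left. Inside the central square lie 703 and 535 of them, with FPKM as deposited.

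Examples of each course were found among the named genes. AT1G62000, an abundant gene of unknown function, differed by 8.07 between stages 2 and 1 and by -0.70 between stages 4 and 3, so on this log2 scale its widest step lay between the early stages. It stood at 17748 and 10892 FPKM in stages 3 and 4, against 1.18 and 583 FPKM in stages 1 and 2. AT1G14940 differed by 0.03 between stages 2 and 1 and by 4.09 between stages 4 and 3, a climb that came late. LCR73 differed by 0.01 between stages 2 and 1 and by -5.64 between stages 4 and 3, and AGP11 by -4.86 and -0.33.

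At the edge of the rule, the late-higher loci just inside the margin were PLP8, NIT4 and AT4G14530, and those just outside ARI7, AT3G52230 and UMAMIT28. NIT4, a nitrilase, stood at 16.5 and 30.4 FPKM in stages 3 and 4, against 7.75 and 5.82 FPKM in stages 1 and 2. ARI7 stood at 61.2 and 64.6 FPKM, against 20.6 and 30.1 FPKM. On the early side RIP4, AT4G23620 and the joint locus of AT5G08600 and AT5G08610 were just inside, and SUMO5, TYRDC and AT1G58420 just outside. SUMO5 stood at 11.1 and 4.90 FPKM, against 46.4 and 23.3 FPKM. Genes just inside and just outside thus differed little, and TYRDC, at 0.0362 and 0.0113 FPKM, against 25.1 and 1.07 FPKM, was left out only because its stage 2 value was low.

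The promoters of the separated genes were compared for short sequence motifs, a property the rule did not use. The 250 bases before the RefSeq start of each single protein-coding gene were searched on both strands. ACGTG is the core of the abscisic acid response element (ABRE), bound by bZIP factors such as ABI5 and EEL. It is contained in the G-box CACGTG, which reads the same on both strands and so counts as 2 ABRE cores. CATGCA is the core of the RY motif, bound by B3 factors such as ABI3 and FUS3. ABRE cores were present in 37.7% of 1150 late-higher promoters, against 21.9% of 961 early-higher promoters, 23.6% of 18477 promoters of all tested genes and 22.9% of 27443 annotated promoters. RY motifs were present in 13.7%, against 9.78%, 8.23% and 8.43%. Both motifs together were present in 6.87% of late-higher promoters, against 2.39% of early-higher promoters and 2.25% of those tested.

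Among 212 late-higher genes with a margin of at least 3, 56.1% held an ABRE core, 29.2% a G-box, 27.4% an RY motif and 36 genes both ABRE and RY. Among 96 early-higher genes with such a margin 24 held an ABRE core, 10 a G-box, 12 an RY motif and 3 both ABRE and RY. The TATA box letters TATAAA were similarly frequent throughout, in 48.3% of late-higher, 49.6% of early-higher and 47.1% of all tested promoters. The site II letters TGGGCC, common before genes of growth and translation, were in 9.30%, 13.3% and 15.8%, and with a margin of at least 3 in 11.3% of late-higher and 3.13% of early-higher promoters. The letters AACGG, the core of a mitosis-specific activator motif, were in 20.1%, 20.2% and 21.4%. A match is a string of letters and not a binding site, and the group with a margin of at least 3 was set after the values were seen.

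**Figure D5:**
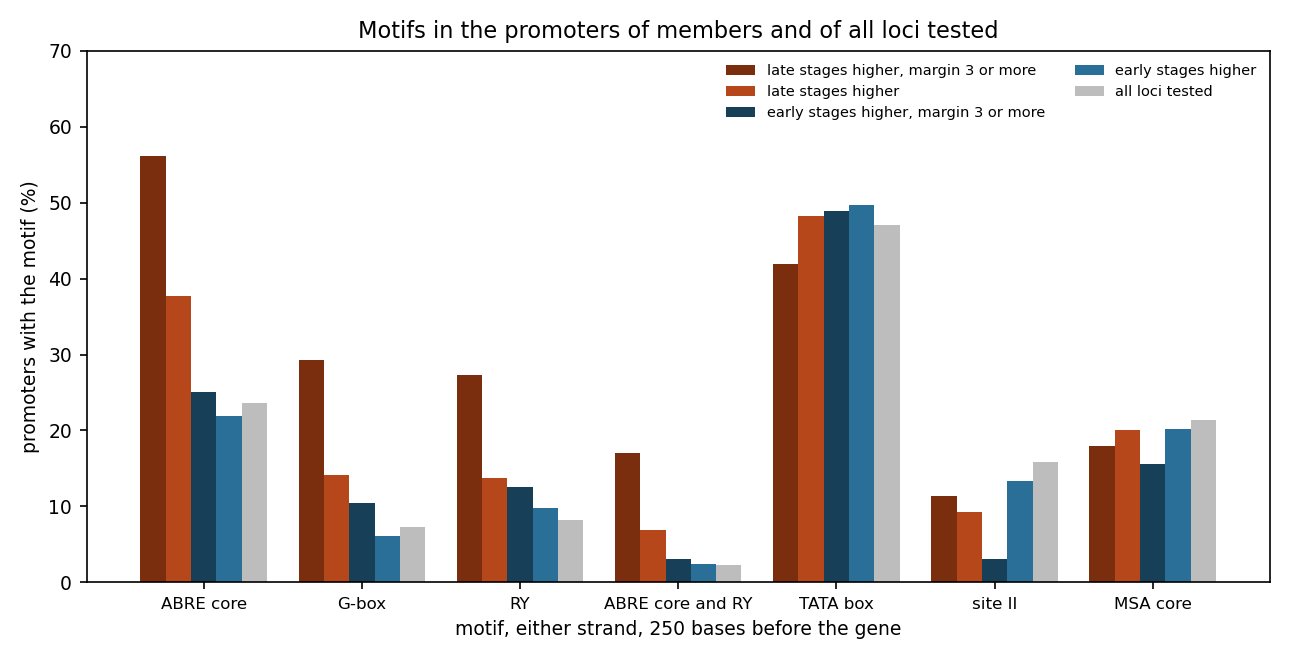
Bars give the percentage of promoters that hold each motif on either strand in the 250 bases before the gene, for late-higher genes with a margin of 3 or more, all late-higher genes, early-higher genes with a margin of 3 or more, all early-higher genes and all tested genes. The late-higher bars stand above the others for the ABRE core (56.1% and 37.7%), the G-box and the RY motif, while the TATA box bars lie between 42.0% and 49.6%.

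The promoters of the 4 late-higher genes with the widest margins among those that hold both motifs are printed to show how the motifs lie, with SESA1 as the most abundant. The widest early-higher gene with both, GER3, is printed beside them, since the same letters occur there too. Sequences run 5′ to 3′ towards the gene, from the RefSeq TAIR10.1 genome, with ABRE cores and RY motifs of either strand in capitals.
AT3G56350, chr3:20895635-20895884, minus strand: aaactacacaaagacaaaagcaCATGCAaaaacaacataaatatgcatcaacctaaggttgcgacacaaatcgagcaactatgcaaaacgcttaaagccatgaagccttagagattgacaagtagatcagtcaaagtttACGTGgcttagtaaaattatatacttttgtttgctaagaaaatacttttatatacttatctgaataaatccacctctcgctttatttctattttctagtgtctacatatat
SESA1, chr4:13607079-13607328, plus strand: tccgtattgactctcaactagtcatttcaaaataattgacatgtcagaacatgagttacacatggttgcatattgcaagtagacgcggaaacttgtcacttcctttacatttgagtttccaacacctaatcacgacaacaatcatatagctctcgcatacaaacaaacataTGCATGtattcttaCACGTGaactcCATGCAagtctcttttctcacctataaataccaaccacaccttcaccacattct
AT5G45690, chr5:18536317-18536566, minus strand: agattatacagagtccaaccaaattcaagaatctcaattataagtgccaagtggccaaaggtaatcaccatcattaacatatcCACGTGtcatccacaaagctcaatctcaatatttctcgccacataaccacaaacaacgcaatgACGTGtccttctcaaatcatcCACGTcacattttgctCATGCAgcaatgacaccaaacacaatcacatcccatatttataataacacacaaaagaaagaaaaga
AT1G05510, chr1:1629196-1629445, plus strand: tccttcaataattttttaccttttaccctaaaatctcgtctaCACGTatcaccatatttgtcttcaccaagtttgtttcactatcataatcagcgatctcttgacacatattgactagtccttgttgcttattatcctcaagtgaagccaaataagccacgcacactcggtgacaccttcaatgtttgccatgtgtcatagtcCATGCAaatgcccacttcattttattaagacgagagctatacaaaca
GER3, chr5:6976037-6976286, minus strand: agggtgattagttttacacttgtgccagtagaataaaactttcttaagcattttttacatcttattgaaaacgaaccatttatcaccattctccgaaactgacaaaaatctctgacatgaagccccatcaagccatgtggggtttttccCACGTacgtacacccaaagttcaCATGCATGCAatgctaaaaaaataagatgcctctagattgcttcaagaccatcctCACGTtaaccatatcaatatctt
In SESA1 a G-box stands between 2 RY motifs, and AT5G45690 holds 4 ABRE cores and 1 RY motif. AT5G45690 stood at 1100.2 and 2550.3 FPKM in stages 3 and 4, against 0.699 and 15.6 FPKM in stages 1 and 2, and AT1G05510 at 1145 and 2276 FPKM, against 0.251 and 17.3 FPKM. Of the 12 late-higher genes with the widest gaps, 7 held an ABRE core and 4 an RY motif, against 5 and 2 of the 12 early-higher ones. Of the 12 late-higher genes, AT1G14940, AT1G14930 and NSP2 held neither.

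Separated genes of one side were often neighbours. Among late-higher loci 263 (21.6%) lay next to another late-higher locus in the order of tested loci, whereas 11.2% of the loci that did not separate lay next to one. Among early-higher loci 170 (17.1%) lay next to another early-higher locus, against 9.39% of the loci that did not separate. Neighbours may be tandem copies of one gene, and the library kit does not mark the strand, so overlapping neighbours can share reads. There were 17 runs of 3 or more late-higher loci and 12 such early-higher runs. The longest late run held 5 loci on chromosome 3 between 828021 and 848335, CHAT, PEX19-1 and the phospholipase C genes NPC3, NPC4 and NPC5. NPC4 stood at 32.5 and 31.4 FPKM in stages 3 and 4, against 1.48 and 2.57 FPKM in stages 1 and 2. The metacaspase genes MC7, MC6 and MC5 on chromosome 1 and the methionine sulfoxide reductase genes MSRB4, MSRB5 and MSRB6 on chromosome 4 formed late runs of 3. Early runs included RBCS3B, RBCS2B and RBCS1B on chromosome 5 and several groups of SAUR genes. Across the 5 chromosomes the late-higher share varied from 5.70% to 6.48% and the early-higher share from 4.57% to 5.42%.

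Separated transcripts were somewhat shorter than the rest. The median length of the longest annotated transcript was 1510.5 bases for late-higher and 1418 bases for early-higher protein-coding genes, against 1696 bases for all tested ones. The smallest values behind the low sides may rest on few fragments, but the depths above are relative and give no sure fragment number. Taken as absolute, 1 fragment on a transcript of 1500 bases would be 0.0114 and 0.0129 FPKM in stages 3 and 4. In stages 1 and 2 it would be 0.0118 and 0.00755 FPKM.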

How the data were processed

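RNA of 4 silique libraries, 1 per stage, was made into TruSeq libraries, which do not mark strand, and sequenced from both ends, per the labels' protocols. FPKM is the unit the authors deposited, and all genes of one Cufflinks locus carry the same value. TopHat, Cufflinks and Cuffdiff are named in the submitters' processing notes, with TAIR10 as genome build. Program versions are not given in the sources used here. Groups follow the stage labels. The growth protocol gives other day limits for some stages, which were not used.

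The 30915 rows of each file were reduced to 29971 loci, 818 of them with several genes. Of these, 10068 were listed at 0 in at least 1 library and were not tested. FPKM is not a count and each stage had 1 library, so no test was run. The pseudocount was 1 and the margin 1. Coordinates of loci are those of the files. Names, transcript lengths, promoters and microRNAs came from RefSeq TAIR10.1, which has an entry for 28733 single-gene loci, 28732 of them at an overlapping place. Among list entries, 387 of 414 in 23 lists had a locus. The members, the lists, the classes of products and the margin of 3 were chosen with earlier results of these data known.

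Named by rule, among single protein-coding genes at 10 FPKM or more in both libraries of the higher side, were the 12 widest margins and the 5 most abundant genes in each direction. The rule added the 6 transcription factors with the widest margins at 5 FPKM or more, up to 5 genes of each list, list members listed at 0, and the 3 loci just inside and just outside the margin. All other genes named, such as those of product classes, families and runs and list members given as examples that did not separate, were chosen after their values were seen. The code of the rule was run on simulated loci that were flat apart from planted steps between the sides. That simulation held no age change inside a side, no library effect and no scaling shift. It therefore checks the code and not the reliability of calls in these libraries.

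Depth came from the spacing of low values. Between 69.9% and 78.4% of 236 to 273 values per library were whole fragments within 0.2, under the plain FPKM formula with 180 bases taken off the transcript length. Part of any randomly spread values would also fall within 0.2 of a whole number. Depth was itself read from low values, so these shares are no independent check of it. Alternatives were other pseudocounts, FPKM minimums, margins, scalings, loci listed at 0, single-gene or longer loci only, and leaving out each stage. The tools were pandas 2.3.3 and numpy 2.4.6 on Python 3.11.15, with figures by matplotlib 3.10.9.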

Additional observations from a re-analysis of the deposited data

How the results depend on the processing

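The counts depended on the pseudocount, on the margin, on the scaling and on each library. No separated locus changed sides, but none could under these alternatives, so this is no check of the directions. With a pseudocount of 0.1 there were 1566 early-higher loci, and with a pseudocount of 5 there were 496, beside 994. With a margin of at least 2 there were 428 late-higher and 277 early-higher loci. Total scaling (equal FPKM sums) gave 2424 late-higher and 381 early-higher loci, a late share of 86.4%. Long-locus scaling turned the late share to 39.5%. Leaving out 1 stage at a time gave 1707 to 2786 late-higher loci, 1388 to 3173 early-higher loci and late shares of 46.8% to 55.6%, the lowest without stage 2; with 1 library fewer the rule is easier to meet by construction. Keeping loci listed at 0 gave 1279 late-higher and 1152 early-higher loci. FPKM minimums of 1 and 5, a common median ratio, single-gene loci and loci of 300 bases or more changed no count by over 1.5 times. The minimum of 1 could remove no locus, since the rule itself requires more than 1 FPKM on the higher side. Of 117 named genes, 98 kept a margin of 1 under total scaling, 111 under long-locus scaling, 107 with a pseudocount of 5 and 80 a margin of 2. None reversed, which was fixed in advance. The cause of these shifts was not tested. No paired analysis was possible because each stage has 1 library, so the stages share only the replicate number 1. With 1 library a stage no difference has a replicate check.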

Other observations

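Loci listed at 0 in a library of the lower side were left out by the rule. With those loci kept, 61 more would be late-higher and 158 more early-higher, and the lower side was listed at 0 in both libraries for 6 and 82 of them. The genes named here were chosen after their values were seen. AT1G58055, a defensin-like gene, was listed at 0 in stages 3 and 4, against 106 and 95.1 FPKM in stages 1 and 2. LCR38 was listed at 0 in both late stages, against 132 and 82.1 FPKM, and SCRL10 at 0.446 FPKM and at 0, against 87.2 and 213 FPKM. On the other side, the cupin gene AT3G04170 stood at 626 and 703 FPKM in stages 3 and 4, against a listed 0 and 12.5 FPKM in stages 1 and 2, and the mannose-binding lectin gene AT3G21380 at 34.9 and 359 FPKM, against a listed 0 and 0.0323 FPKM. The early-higher loci of this kind also include SESA3 and 12S globulin genes whose late values of 0 cannot be read, so these counts give no direction by themselves.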
